A study of Mus musculus with 6 samples.

Results

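The genes described here encode the machinery that carries proteins into mitochondria and folds them there. They were chosen as a list of 38 symbols grouped by role, and 37 of them had a probe set of their own among the 19938 genes measured. RAW264.7, an established mouse macrophage-like line, was transfected with a synthetic mimic of the mature miR-342-3p (miR-342-3p-transfected cells) or with a scrambled mimic as miR-negative control. Total RNA was taken after 18 h. A labeling input of 150 ng was hybridized to whole-transcript mouse gene arrays, with 3 arrays in each group. All values are log2 signals after robust multiarray averaging (RMA), so a difference of 1 is a doubling, and they compare arrays for 1 gene, not genes with each other. Both groups were transfected, and no untransfected sample was compared. Per a legend of the study, the samples came from independent experiments, all in a single cell line given an excess of the miRNA.

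Most mitochondrial proteins are made in the cytosol as precursors. They pass the outer membrane through the TOM complex and are then sorted. β-barrel proteins go to the SAM complex, and small cysteine-rich proteins are trapped in the intermembrane space by the disulfide relay of CHCHD4 (MIA40) and GFER. Small TIM chaperones escort metabolite carriers to the TIM22 translocase. Precursors with a presequence use the TIM23 translocase and its HSP70 motor, and are cleaved by the processing peptidase and folded by HSP60 and HSP10. The small TIM proteins work as ring-shaped complexes, TIM9 with TIM10 and TIM8A with TIM13. Loss of human TIMM8A causes Mohr-Tranebjaerg (deafness-dystonia) syndrome.

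The mature miR-342-3p is shown first because its mimic was transfected into the cells. Sequences were taken from RefSeq with the assembly GRCm38.p6, in which this miRNA lies at chr12:108658680-108658702 on the plus strand. Capitals mark the seed, bases 2 to 8. Matches to the seed in the members were not examined.
miR-342-3p: uCUCACACagaaaucgcacccgu

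Promoter windows of 300 bases, 250 before and 50 from the annotated start, are given for Timm8a1, the member with the largest fall, and for Hspd1 and Hspe1, neighbors that start in opposite directions and whose annotated genes overlap by 96 bases. The windows lie at chrX:134541621-134541920 on the minus strand, chr1:55088194-55088493 on the minus strand and chr1:55087898-55088197 on the plus strand. Motifs searched were CACGTG, the E-box bound by MYC and USF proteins, and TGCGCA, the core of the motif of NRF1, a regulator of nuclear genes for mitochondrial proteins. Capitals mark matches.
Timm8a1: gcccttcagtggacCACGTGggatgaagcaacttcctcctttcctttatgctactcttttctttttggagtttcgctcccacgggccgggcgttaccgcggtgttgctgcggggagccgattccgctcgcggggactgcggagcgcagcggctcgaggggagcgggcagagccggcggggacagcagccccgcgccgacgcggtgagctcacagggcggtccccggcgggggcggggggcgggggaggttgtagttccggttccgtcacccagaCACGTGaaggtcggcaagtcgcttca
Hspd1: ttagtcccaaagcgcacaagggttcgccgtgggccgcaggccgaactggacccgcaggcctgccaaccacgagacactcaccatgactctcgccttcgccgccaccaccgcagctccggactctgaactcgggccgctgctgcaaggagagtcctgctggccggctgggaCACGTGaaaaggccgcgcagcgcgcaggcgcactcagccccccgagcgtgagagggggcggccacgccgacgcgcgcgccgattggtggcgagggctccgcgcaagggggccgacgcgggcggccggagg
Hspe1: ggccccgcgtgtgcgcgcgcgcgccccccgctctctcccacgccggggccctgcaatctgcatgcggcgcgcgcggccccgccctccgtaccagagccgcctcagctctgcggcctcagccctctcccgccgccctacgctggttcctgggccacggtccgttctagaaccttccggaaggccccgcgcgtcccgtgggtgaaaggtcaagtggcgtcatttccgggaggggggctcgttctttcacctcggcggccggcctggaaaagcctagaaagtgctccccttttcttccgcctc
The window of Timm8a1 held CACGTG at positions -236 and 25 from the start, that shown for Hspd1 held it at -80, and that of Hspe1 held neither motif. A second annotated window of Hspd1, chr1:55087883-55088182 on the minus strand, also held neither motif. Both motifs read the same on either strand, and they overlapped in 0 member windows. Of 33 members with a window, 5 held CACGTG (Tomm20, Timm8a1, Timm9, Timm10 and Hspd1), or 15.2%, against 8.09% of 27025 genes and 7.15% of 32851 windows of this length. TGCGCA was found in 6 members (Tomm20, Tomm34, Timm8b, Timm13, Timm23 and Pam16), or 18.2%, against 8.79% of genes and 7.76% of windows. It was searched after longer forms of the NRF1 motif had been tried, and the shares of both motifs were not tested. A match of letters is a description of the window and does not show that a factor binds.

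Correlations across genes were 0.9909 to 0.9926 among the miR-342-3p arrays and 0.9982 to 0.9986 among the control arrays. miR-342-3p replicate 3 lay nearest to the controls (mean correlation 0.9959, against 0.9863 and 0.9873 for replicates 1 and 2). All 11 macrophage markers were above the median of each array, except Adgre1 on miR-342-3p replicate 1 (6.89, against a median of 6.95). Their mean level was 10.66 to 10.84 in miR-342-3p arrays and 10.79 in control arrays. At an FDR under 0.1, 2 markers were lower (Itgam and Fcgr1) and 3 higher (Mertk, Spi1 and Tyrobp). The mean does not show these opposite changes. Over all genes, 7.42% were lower and 4.14% higher. The mean over 5 lymphocyte markers was 5.48 to 5.84 in miR-342-3p arrays and 5.49 to 5.53 in control arrays, all below the median of each array except Cd3e on miR-342-3p replicate 1 (7.02), and those over 6 fibroblast markers (6.69 to 6.97, against 6.56 to 6.60; 1 higher) and 4 epithelial markers (6.70 to 6.83, against 6.56 to 6.70; 0 called) lay near the array medians of 6.80 to 6.95.

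In miR-342-3p-transfected cells a few genes at separate steps of the import route were lower, and most did not pass the test. At an FDR under 0.1 over all genes (limma, Benjamini-Hochberg), 4 of the 37 members were downregulated, namely Timm8a1, Timm23, Tomm20 and Hspd1, and 1 was upregulated, Gfer. This was 10.8% lower against a background of 7.42% of all genes, and 2.70% higher against 4.14%, so both shares were near the background (11.6% of all genes were called in either direction). The other 32 members did not pass the test. In these bulk samples, fewer cells with a transcript and less of it per cell cannot be told apart.

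Timm8a1 encodes a chaperone of the intermembrane space that guides hydrophobic inner membrane proteins. Its log2 level was 7.47, 7.86 and 7.81 in miR-342-3p-transfected replicates 1, 2 and 3, against 9.04, 8.98 and 8.87 in the miR-negative control. All 3 miR-342-3p arrays were thus lower by more than 1 than each control array. The log2 fold change was -1.25 (standard error 0.11, 95% confidence interval -1.51 to -0.996, FDR = 0.00339), which left 42.0% of the control level and was the 9th lowest change among all genes. A second Timm8a1 probe set gave 7.73, 8.42 and 8.01 in miR-342-3p arrays and 9.045, 9.045 and 9.004 in control arrays, a change of -0.98 (FDR = 0.0168), and its groups did not overlap either.

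The 5 other measured small TIM genes did not pass the test, 1 of them by a narrow margin. Timm9, which forms a ring with Timm10, was at 8.97, 9.30 and 9.32 in miR-342-3p arrays and 9.55, 9.44 and 9.58 in control arrays (log2 fold change -0.33, standard error 0.11, FDR = 0.110). Timm10 was at 8.13, 8.78 and 8.47 in miR-342-3p arrays and 8.46, 8.27 and 8.42 in control arrays (0.08, FDR = 0.737). The groups of Timm9 did not overlap, whereas those of Timm10 did, and miR-342-3p replicate 1 was the lowest of the 6 arrays for both.

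Timm13, the partner of TIM8A, was at 9.20, 9.47 and 9.12 in miR-342-3p arrays and 9.09, 9.04 and 9.09 in control arrays (0.19, FDR = 0.253). Timm8b, a relative of Timm8a1, was at 11.11, 11.13 and 11.14 in miR-342-3p arrays and 11.05, 11.01 and 11.04 in control arrays (0.09, FDR = 0.392). Each miR-342-3p array was above each control array for these genes, by small amounts. Timm8a2, a paralog of Timm8a1, was at 5.06, 5.19 and 4.92 in miR-342-3p arrays and 4.85, 5.14 and 5.04 in control arrays, below the median of every array. Timm10b, which is bound to TIM22, had no value of its own because its 1 probe set is also annotated to Dnhd1, and that shared probe set changed by 0.10 (FDR = 0.397).

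**Figure D1:**
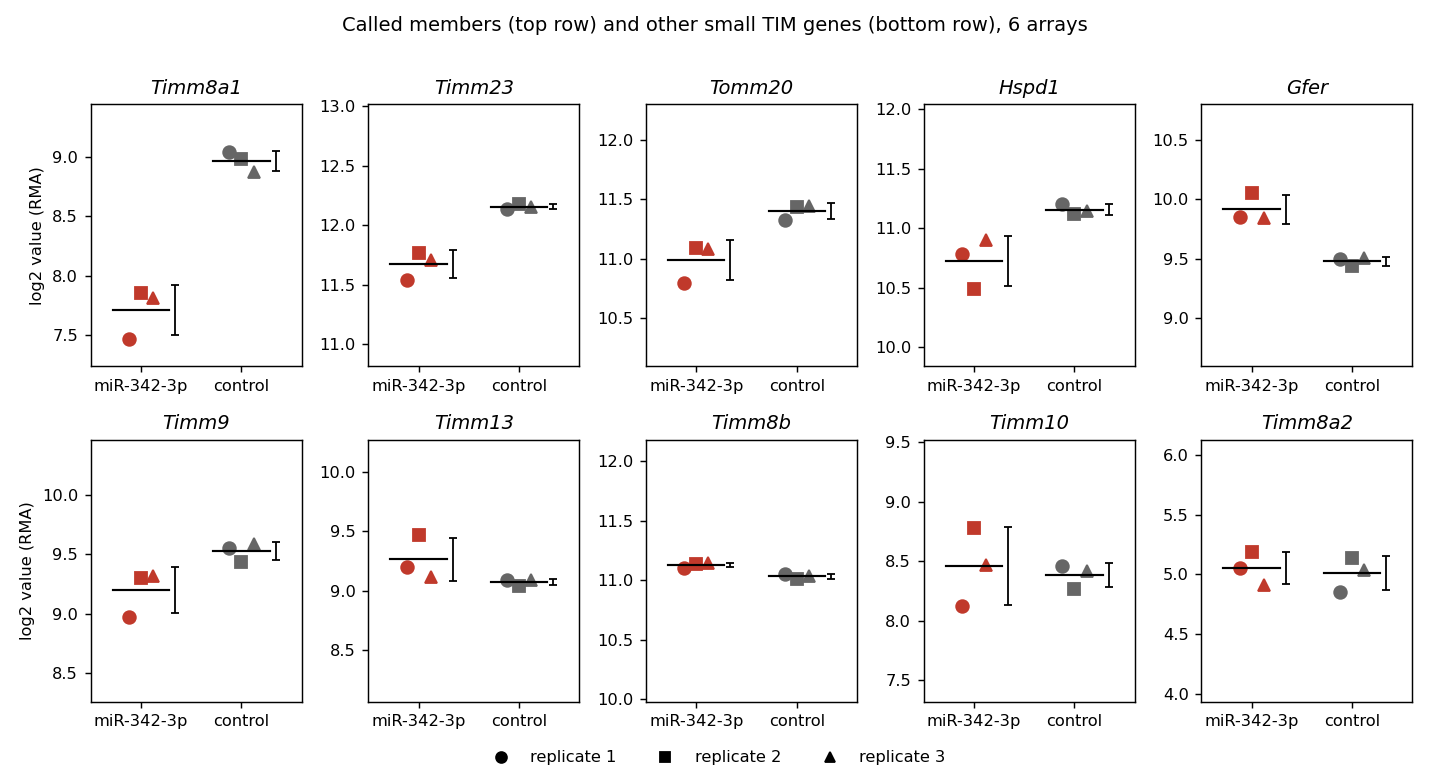
Log2 level on each array for the 5 called members (top row) and the other 5 measured small TIM genes (bottom row), with miR-342-3p arrays at the left and control arrays at the right of each panel, 1 symbol per replicate, a line at the mean of 3 arrays and a bar of 1 SD to either side. Every panel spans the same log2 range, and the groups of Timm8a1 lie farthest apart (means 7.71 and 8.96).

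Timm8a1 was then set against its partners on the same array, so that any shift common to an array cancels. Its log2 level minus the mean of Timm8a2, Timm8b, Timm9, Timm10 and Timm13 was -1.03, -0.92 and -0.78 in miR-342-3p arrays and 0.44, 0.41 and 0.24 in control arrays. The sign differed between the groups on all 6 arrays, although only the difference between groups is informative, because levels of different genes are not on 1 scale. It averaged -0.91 ± 0.12 in miR-342-3p-transfected cells and 0.36 ± 0.11 in the miR-negative control (SD, n = 3 each), a difference of -1.27 (exact permutation test, two-sided, p = 0.1, the smallest that 3 against 3 arrays allow). Timm8a2 lay below the median of every array and was not tested for signal above background, and without it the difference was -1.26 (exact permutation p = 0.1). Against single partners the differences ran from -1.44 for Timm13 and -1.35 for Timm8b to -0.93 for Timm9, with -1.33 for Timm10 and -1.30 for Timm8a2. The groups did not overlap in any of the 5 comparisons (exact permutation p = 0.1 each). All 5 share the same Timm8a1 values, so they are not separate support. Timm8a1 was already called on these arrays, so its separation from the partners is not further support for its change. Benjamini-Hochberg adjustment over 5 equal p-values returns the same value. Timm9 minus Timm10 was 0.84, 0.52 and 0.85 in miR-342-3p arrays and 1.095, 1.171 and 1.162 in control arrays, a difference of -0.40 without overlap (exact permutation p = 0.1).

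**Figure D2:**
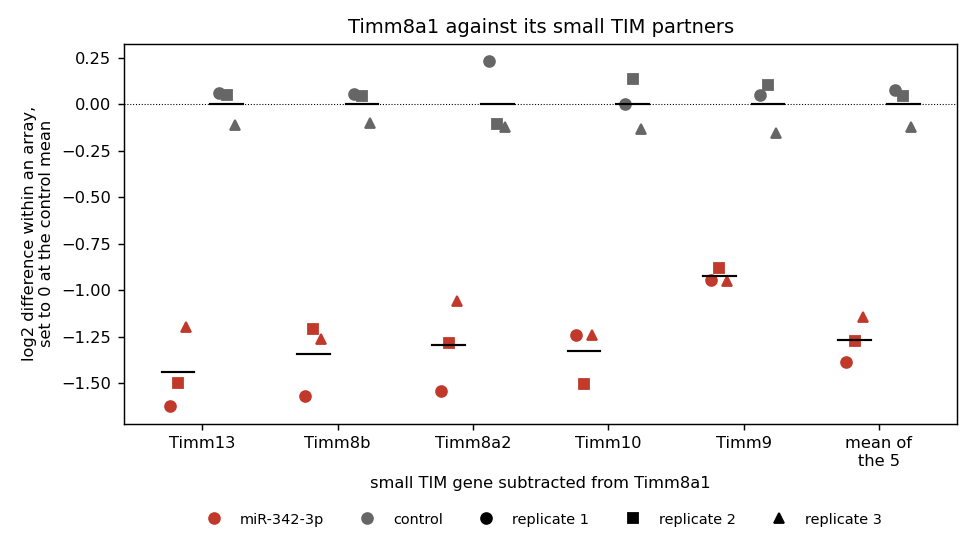
Log2 difference between Timm8a1 and each small TIM gene, and the mean of the 5, within each array, set to 0 at the control mean; red symbols are miR-342-3p and grey symbols control arrays, the shape gives the replicate and the short lines are group means. The miR-342-3p arrays lie below the control arrays for every partner, with mean differences of -0.93 for Timm9 to -1.44 for Timm13.

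The small TIM precursors are oxidized and trapped by the disulfide relay. Gfer, the sulfhydryl oxidase that reoxidizes CHCHD4, was the 1 upregulated member, at 9.85, 10.05 and 9.84 in miR-342-3p arrays and 9.49, 9.44 and 9.51 in control arrays (log2 fold change 0.44, standard error 0.084, FDR = 0.0277). Chchd4, the oxidoreductase that receives the precursors, was at 9.70, 9.94 and 9.80 in miR-342-3p arrays and 9.85, 9.90 and 9.85 in control arrays (-0.05, FDR = 0.693). The groups were apart for Gfer and overlapped for Chchd4. Gfer minus Chchd4 was 0.15, 0.11 and 0.04 in miR-342-3p arrays and -0.36, -0.46 and -0.34 in control arrays, a difference of 0.49 (exact permutation p = 0.1). Gfer was already called on these arrays, so this separation is not further support for its change.

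In the outer membrane, 8 of the 9 genes grouped with the TOM complex had a negative change and 1 passed the test. Tomm20, the receptor for presequences, was at 10.80, 11.09 and 11.09 in miR-342-3p arrays and 11.33, 11.44 and 11.45 in control arrays (log2 fold change -0.41, standard error 0.097, FDR = 0.0486), so every miR-342-3p array was below every control array. Tomm70a, the receptor for carrier precursors, averaged 9.13 ± 0.27 in miR-342-3p and 9.45 ± 0.057 in control arrays (SD, n = 3 each; FDR = 0.160). Tomm34, a cytosolic cochaperone, averaged 10.53 ± 0.17 and 10.83 ± 0.071 (SD, n = 3 each; FDR = 0.118). Neither passed the test, although their groups did not overlap.

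Tomm5, a small subunit of the complex, was the TOM gene with a positive change (0.28, FDR = 0.106), and its groups did not overlap. The changes of the others were -0.26 for the receptor Tomm22, -0.26 for the channel paralog Tomm40l, -0.12 for the channel Tomm40, -0.14 for Tomm6 and -0.02 for Tomm7 (0.07 without miR-342-3p replicate 1). Tomm20 minus Tomm22 differed by -0.15 between groups that overlapped (exact permutation p = 0.4). The SAM genes had log2 fold changes of 0.09 for the core subunit Samm50, -0.12 for the metaxin Mtx1 and 0.03 for Mtx2. None passed the test (FDR of 0.328 or more), and 0 of 3 had an unadjusted limma p under 0.05, against 5086 of 19938 genes.

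Among the inner membrane translocases, Timm23, the channel subunit for presequence proteins, was downregulated. It was at 11.54, 11.77 and 11.71 in miR-342-3p arrays and 12.14, 12.18 and 12.15 in control arrays. The change was -0.48 on the log2 scale (standard error 0.082, FDR = 0.0205) and left 71.5% of the control level. The lowest control array exceeded the highest miR-342-3p array by more than the range within either group. Timm23 had 3 further probe sets, 1 with values identical to those used, and the others gave -0.42 and -0.41 (FDR = 0.0256 and 0.0260).

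All 5 genes grouped with TIM23 had a negative change, but only Timm23 passed the test. Timm21, which links TIM23 to the respiratory chain, averaged 8.48 ± 0.13 in miR-342-3p and 8.71 ± 0.054 in control arrays (SD, n = 3 each; FDR = 0.157). Timm17a, which forms the translocase with TIM23, averaged 10.85 ± 0.069 and 10.95 ± 0.059 (SD, n = 3 each; FDR = 0.412), and the presequence receptor Timm50 and Timm17b changed by -0.07 and -0.03. Without miR-342-3p replicate 3 both had a positive change, of 0.02 for Timm50 and 0.05 for Timm17b. Timm23 minus Timm17a was 0.66, 0.86 and 0.93 in miR-342-3p arrays and 1.25, 1.18 and 1.18 in control arrays, a difference of -0.38 without overlap (exact permutation p = 0.1). As Timm23 was already called on these arrays, this is not further support for its change. Timm22, the channel for carriers, averaged 8.44 ± 0.21 and 8.59 ± 0.058 (SD, n = 3 each; FDR = 0.385).

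No motor gene passed the test, and their changes went both ways (unadjusted limma p under 0.05 in 2 of 6, against 5086 of 19938 genes). Pam16, a J-like regulator of the motor, was at 10.11, 10.42 and 10.17 in miR-342-3p arrays and 10.00, 9.81 and 9.96 in control arrays (0.31, FDR = 0.112). The J protein Dnajc19 was at 7.91, 8.21 and 8.30 in miR-342-3p arrays and 8.42, 8.42 and 8.44 in control arrays (-0.29, FDR = 0.133). The groups overlapped for neither. Grpel1, a nucleotide exchange factor, changed by 0.23 (FDR = 0.218), its paralog Grpel2 by 0.05, the motor anchor Timm44 by -0.10 and Hspa9, the mitochondrial HSP70 itself, by -0.03 (FDR = 0.772).

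**Figure D3:**
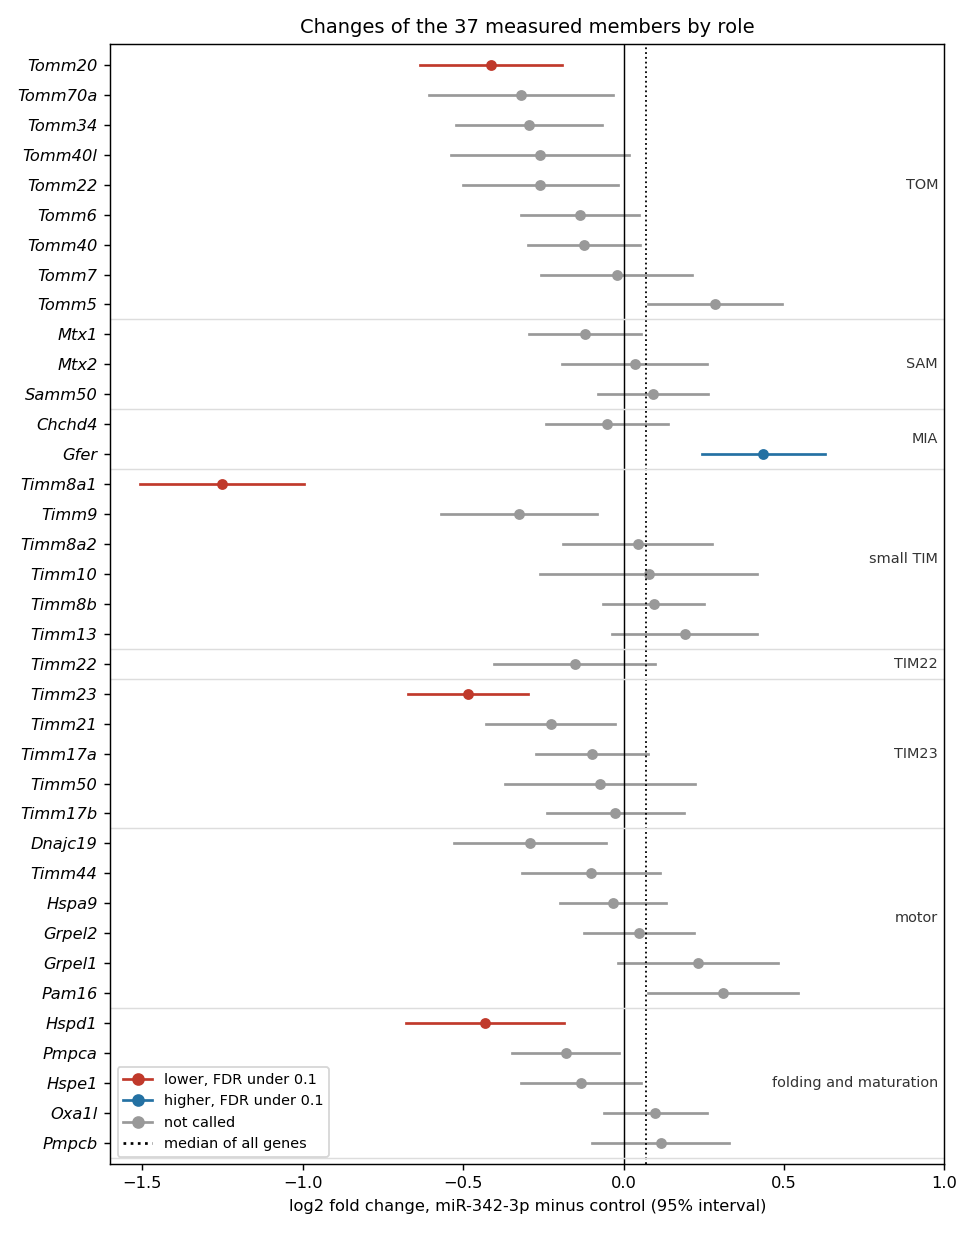
Log2 fold change, miR-342-3p minus control, of the 37 measured members grouped by role; red genes were lower and blue genes higher at an FDR under 0.1, grey genes were not called, bars are 95% confidence intervals and the dotted line is the median of all genes (0.07). Timm8a1 (-1.25) stands outside the range of the other members, which runs from -0.48 for Timm23 to 0.44 for Gfer.

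HSP60 and HSP10 form the folding chamber of the matrix, and their genes were set side by side after the values had been seen. Hspd1, which encodes HSP60, was at 10.78, 10.49 and 10.90 in miR-342-3p arrays and 11.21, 11.12 and 11.14 in control arrays (log2 fold change -0.43, standard error 0.11, FDR = 0.0570). Hspe1, which encodes HSP10, was at 11.86, 12.04 and 12.04 in miR-342-3p arrays and 12.09, 12.07 and 12.17 in control arrays (-0.13, FDR = 0.315). The groups did not overlap for either gene. Hspd1 minus Hspe1 was -1.07, -1.55 and -1.14 in miR-342-3p arrays and -0.88, -0.95 and -1.02 in control arrays, a difference of -0.30 (exact permutation p = 0.1) that was -0.15 without miR-342-3p replicate 2. The second Hspd1 probe set gave -0.27 (FDR = 0.104) and so missed the threshold, and that of Hspe1 gave -0.11.

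The remaining maturation genes did not pass the test. Pmpca, a subunit of the processing peptidase, averaged 10.44 ± 0.063 in miR-342-3p and 10.62 ± 0.018 in control arrays (SD, n = 3 each; -0.18, FDR = 0.168), and its groups did not overlap. Its partner Pmpcb changed by 0.12 (FDR = 0.433), and the inner membrane insertase Oxa1l by 0.10 (FDR = 0.375). Further probe sets of Tomm20 (-0.33, FDR = 0.0621), Timm17a (-0.07) and Pam16 (0.29) had the direction of those used. Probes can also match near-identical copies of a gene, which was not tested.

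Across the 37 members, 24 changes were negative (64.9%, against 35.5% of all genes), with a median log2 fold change of -0.10, against 0.07 over all genes. The groups did not overlap for 18 members (48.6%, against 36.9% of all genes), 11 of them lower (15.5% of all genes) and 7 higher (21.4%). The members were mostly well expressed, and 36 of them were among the 9969 genes at or above the median level, where the median of all genes was -0.02. When only those genes were tested, 9 members were lower (25.0%, against 19.6%) and 3 higher (8.33%, against 10.9%). The shares of negative changes and of groups without overlap were not counted at that level. The median over the members differed between replicates, at -0.20, -0.00 and -0.09 in miR-342-3p replicates 1, 2 and 3, against 0.11, 0.04 and 0.03 over all genes. Leaving out any 1 control array left Timm8a1 as the only called member (FDR up to 0.0251), with FDRs of 0.112 to 0.121 for Timm23, 0.151 to 0.196 for Tomm20, 0.181 to 0.216 for Hspd1 and 0.127 to 0.1497 for Gfer. The calls among all genes fell as well, to 102 to 140 lower and 88 to 100 higher genes, and the change of Timm23 was -0.49 to -0.47.

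Related lists were described beside the members, 97 measured genes in all, of which 10 were lower (10.3%, against 7.42% of all genes) and 5 higher (5.15%, against 4.14%), with a median of -0.08. When only genes at or above the median level were tested, 24 listed genes were lower and 6 higher, beside 19.6% and 10.9% of genes at that level. The number of listed genes at that level was not counted, so these counts have no share of their own. The shares of single lists below are set against all genes and were not counted at that level. Of 25 carriers that use the small TIM and TIM22 route, 4 were lower (16.0%, against 7.42%) and 3 higher (12.0%, against 4.14%). The lower ones included the ADP/ATP carriers Slc25a4 (-0.37, FDR = 0.0365) and Slc25a5 (-0.30, FDR = 0.0638). Also lower was the aspartate/glutamate carrier Slc25a13 (-0.43, FDR = 0.0255), a substrate of TIM8A and TIM13 in human cells. Its paralog Slc25a12 was not called (0.02, FDR = 0.917), and its groups overlapped. The higher ones included Slc25a44 (0.45, FDR = 0.0383), a carrier of branched-chain amino acids, and the iron importer Slc25a37 (0.34, FDR = 0.0597). The median over the 25 carriers was 0.02.

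Of 18 intermembrane space proteins of the disulfide relay, 11.1% were lower and 5.56% higher, against 7.42% and 4.14% of all genes. The cytochrome oxidase assembly factor Cmc2 (-0.27, FDR = 0.0717) and the cristae protein Chchd3 (-0.26, FDR = 0.0814) were lower. Chchd5 (0.43, FDR = 0.0687) was higher. Of 18 other import and maturation factors, 2 were lower (11.1%, against 7.42% of all genes) and 0 higher (against 4.14%). These were Immp1l (-0.55, FDR = 0.0203), a subunit of the inner membrane peptidase, and Aifm1 (-0.38, FDR = 0.0529), which binds CHCHD4. Of 14 proteases and prohibitins, the rhomboid protease Parl was lower (-0.25, FDR = 0.0927), or 7.14% against 7.42% of all genes. None of 8 cytosolic chaperones of precursors was called (limma; unadjusted p under 0.05 in 1 of 8; 0 also with the methods' t-test). Among 14 regulators of mitochondrial biogenesis, the transcription factor Nrf1 was lower (-0.38, FDR = 0.0366) and the mitochondrial RNA polymerase Polrmt was higher (0.27, FDR = 0.0902). Each was 7.14% of the list, against 7.42% of all genes lower and 4.14% higher. Myc was at 0.07 (FDR = 0.686). Several calls in these lists lay near the threshold and were lost in many of 15 alternatives, 11 for Parl, 8 each for Chchd3 and Polrmt, and 6 each for Cmc2 and Chchd5.

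**Figure D4:**
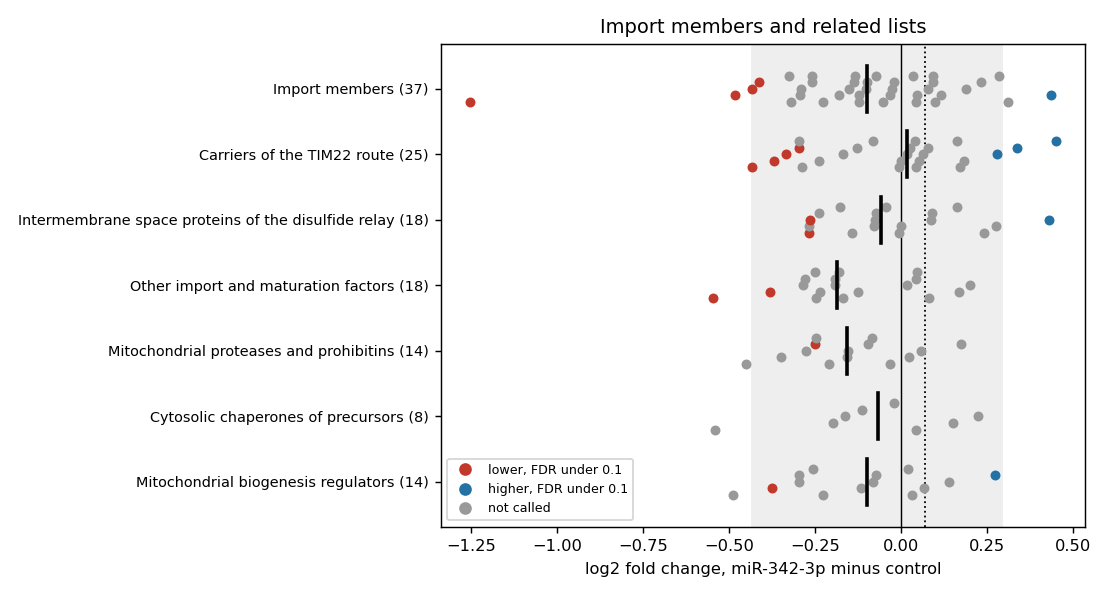
Log2 fold change, miR-342-3p minus control, of each measured gene of the import members and of 6 related lists (number of genes in parentheses), with lower genes in red, higher genes in blue, genes not called in grey and a thick line at each list's median; the dotted line is the median of all genes and the grey band holds the central 90% of all genes (-0.43 to 0.29). The list medians lie between -0.19 and 0.02, against 0.07 over all genes and -0.02 over genes at or above the median level. Timm8a1 is the lowest point of the figure.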

How the data were processed

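Gene expression was measured in 3 miR-342-3p-transfected and 3 miR-negative control samples of RAW264.7 cells. The authors used RMA (version not given in the sources used here) on the scans and deposited log2 values of 35556 probe sets. RMA includes a quantile normalization, yet the deposited medians of the arrays still ran from 6.80 to 6.95. Groups and replicate numbers came from the sample labels.

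The platform annotation gave 21789 probe sets 1 gene and 1621 several (not used), and 12146 were unnamed here. A gene with several probe sets was represented by that of widest interquartile range over 6 arrays, as in the methods of the study. The 19938 genes were fitted with limma 3.58.1 in R 4.3.3 (lmFit and eBayes; prior 4.79 and residual 4 degrees of freedom), with Benjamini-Hochberg adjustment over all genes and calls at an FDR under 0.1. Differences between genes within an array were compared with exact permutation tests, two-sided. Only the comparison of Timm8a1 with its small TIM partners was planned, and the other gene pairs are description. No filter on level was applied. The number of arrays limits the precision.

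All small TIM genes and called members are given by array, others up to 3 in a role group by size of change, and from each related list up to 4 called genes by size of change. Slc25a5, Slc25a12 and Myc were added after their values were seen. The members and lists were chosen with earlier results of these data known. RefSeq promoter windows were found for 33 members; TGCGCA was searched after longer forms of the NRF1 motif had been tried. Alternatives comprised a block by replicate number, leaving out single arrays, and other probe sets, scaling, level filter, prior, weights, partners and threshold, and the t-test of the methods. Figures were drawn with matplotlib 3.10.9 in Python 3.11.15.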

Additional observations from a re-analysis of the deposited data

How the results depend on the processing

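Timm8a1 was lower under every alternative, with log2 fold changes of -1.32 to -1.13 when 1 array was left out. It missed the threshold only with the gene-wise Student's t-test (-1.25, FDR = 0.102), which the study did not describe for its arrays. Its difference from the partners was -1.33 to -1.21 with 1 array left out, -0.99 with the probe set of highest mean, -1.13 with the mean of the probe sets, -1.44 with Timm13 alone and, in an alternative added after the data were seen, -1.26 without Timm8a2. The members' median stayed between -0.15 and -0.01 with 1 array left out. With 1 array left out, 1 to 10 members were lower and 0 to 3 higher, as were 0 to 24 and 0 to 6 genes of the related lists and 102 to 2422 and 88 to 2104 of all genes. The most lower members, 10, were called without miR-342-3p replicate 2, where 1830 of 19938 genes were lower. Without replicate 3 there were 7 lower and 3 higher members, beside 2422 lower and 2104 higher of all genes. Without replicate 1 there were 4 lower and 2 higher members, beside 986 lower and 675 higher of all genes.

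Lower genes made up 64.2% of all calls, against 77.2% with arrays centred on their medians (408 higher; 1 higher in the related lists) and 43.8% with quantile normalization repeated (1826 higher; 4 higher members). The level filter gave 9 lower and 3 higher members and 24 lower in the related lists, beside 1952 lower and 1086 higher of 9969 genes. The trend and robust prior gave 3 higher members and 17 lower in those lists, beside 972 higher and 1763 lower of 19938 genes. The gene-wise Student's t-test called 22 lower and 26 higher genes, with 0 members either way and 0 and 0 in the related lists. At an unadjusted p under 0.05 it gave 5 lower and 4 higher members, against 1955 lower and 2080 higher of 19938 genes. By limma 4 members were called lower and 1 higher. An FDR under 0.05 gave 661 lower and 312 higher genes, and under 0.01 gave 19 and 33, with 1 lower and 0 higher member. The cause of these shifts was not tested.

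Between arrays with the same replicate number, the correlations of deviations from the group means were -0.31, -0.16 and -0.11. Whether arrays with the same number came from 1 experiment cannot be told from so few arrays. The replicate block called 8 lower and 3 higher genes in the related lists, beside 1445 lower and 550 higher of 19938 genes. In those lists Cmc2 (FDR = 0.169), Chchd3 (0.182), Parl (0.207), Polrmt (0.165) and Slc25a5 (0.123) lost their calls. The block changed no call among the members. Signs turned, with no call, for 8 members and for Myc. With 1 array left out, Chchd4 ran from -0.11 to 0.0048, Timm8a2 from -0.0346 to 0.11, Timm10 from -0.0808 to 0.24, Mtx2 from -0.0559 to 0.0893, Tomm7 from -0.13 to 0.0653, Timm17b from -0.12 to 0.0456, Timm50 from -0.23 to 0.0194 and Myc from -0.0538 to 0.13. With quantile normalization repeated, Chchd4 was at 0.017, Tomm7 at 0.032, Timm17b at 0.0388 and Hspa9 at 0.0102, and with array weights Timm8a2 was at -0.026.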
